A study of Mus musculus with 17 samples.

Results

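The collagen genes were the 37 loci of the deposited table whose Gene entry was a single symbol of the form Col, digits, a, digits, held by no other locus, out of 20420 loci with 1 symbol of their own. They comprised 10 fibrillar chains, 5 chains of the type IV basement membrane network and 22 other collagens. A further 9 loci naming a collagen were left out. Of these, 3 carried a second gene's symbol (Col23a1 with Agxt2l2, Col20a1 with Arfgap1, Col7a1 with Ucn2), and 6 were pairs of loci sharing Col4a3, Col5a3 or Col15a1.

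Polyadenylated RNA of mammary glands from nulliparous female C57Bl/6 mice was sequenced in 17 libraries, 8 single-end and 9 paired-end. WT mice were wild type. AROM mice (tet-op-CYP19A1MMTV-rtTA) carried a tetracycline-operator transgene of CYP19A1, the aromatase gene, and CERM mice (tet-op-Esr1MMTV-rtTA) one of Esr1, the estrogen receptor alpha gene; in both, the reverse tetracycline transactivator was under the MMTV promoter, which is active mainly in mammary epithelium. BRCA mice (Brca1fl11/fl11/MMTV-Cre/p53+/-) had floxed Brca1 exon 11, Cre under the same promoter and heterozygous loss of p53. Ages, housing and any doxycycline schedule are not in the labels used here. The table holds 1 pooled value per gene for each genotype and layout, so 8 columns in all, and the genotype names below are those of the column labels. No column has replicate values: no SD, p-value or interval could be computed, and every difference below is a description of 2 pooled columns.

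Several facts of the whole table touch the collagens. Values were FPKM, fragments scaled by transcript length and by the mapped total, and the depth behind them is unknown. Both WT columns carried decimals like those of means of 3 values (46.7% of the single-end and 43.3% of the paired-end values, at most 0.0227% elsewhere), whereas WT has 2 libraries in the single-end labels and 1 in the paired-end labels, so what was averaged in the WT columns was not settled. Ncl, a nucleolar gene used by every cell, was listed at 0 in single-end WT and at 107 FPKM in paired-end WT, so a 0 can be a failed estimate; no collagen was listed at 0. Summed over all loci, FPKM came to 119835349 in paired-end AROM, 4255000 to 6243130 in the other paired-end columns and 894860 to 1048763 in the single-end ones, but over the loci with 1 symbol of their own it lay between 413346 and 514766 in all 8 columns. Per the labels' protocols libraries were sequenced by both methods, so the columns of a genotype may share RNA and are not independent repeats. Esr1 was at 8.49 FPKM (single-end) and 8.41 FPKM (paired-end) in CERM against 7.27 and 6.89 FPKM in WT, while AROM stood at 8.41 and 7.87 FPKM. Mouse Cyp19a1 was listed at 0 in all columns but AROM, at 0.0591 and 0.0502 FPKM there. Trp53 was at 12.3 and 12.1 FPKM in BRCA against 41.1 and 34.5 FPKM in WT. Brca1 was at 3.28 and 3.29 FPKM in BRCA against 1.13 and 0.851 FPKM in WT, a value over the whole locus that does not measure exon 11. In bulk tissue, fewer cells of a type and less RNA per cell cannot be told apart.

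Collagens are trimeric extracellular proteins built from chains with a repeating glycine pattern that winds into a triple helix. Fibrillar collagens (types I, III and V here) form the tensile fibrils of the stroma and are made mainly by fibroblasts, type IV collagens form the sheet beneath epithelium, endothelium, fat and muscle cells, and the remaining families sit on fibril surfaces, make beaded filaments or span membranes. In the mammary gland, fibrillar collagen surrounds the ducts and its density affects stiffness, while the basement membrane contacts the myoepithelial layer.

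RefSeq promoter sequences (build GRCm38.p6, later than the mm9 of the table) were found for 30 of the 37 collagens. Col1a1, Col2a1, Col5a2, Col9a3, Col12a1, Col14a1 and Col22a1 had no entry. The 250 bases before the start are shown for Col3a1 and Col1a2, fibrillar genes that stood highest in the BRCA columns. They are also shown for Col9a2, a type IX gene lowest in AROM in the paired-end columns alone. Capitals mark the TATA box motif TATAAA, the CCAAT motif and the GC box motif GGGCGG, or the reverse complement of one of these.
Col3a1, chr1:45311288-45311537, plus strand: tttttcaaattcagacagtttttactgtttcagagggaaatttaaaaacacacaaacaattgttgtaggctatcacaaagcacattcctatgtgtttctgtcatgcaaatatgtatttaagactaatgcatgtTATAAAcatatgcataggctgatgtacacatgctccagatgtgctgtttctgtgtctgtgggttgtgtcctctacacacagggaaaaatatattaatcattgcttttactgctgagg
Col1a2, chr6:4505368-4505617, plus strand: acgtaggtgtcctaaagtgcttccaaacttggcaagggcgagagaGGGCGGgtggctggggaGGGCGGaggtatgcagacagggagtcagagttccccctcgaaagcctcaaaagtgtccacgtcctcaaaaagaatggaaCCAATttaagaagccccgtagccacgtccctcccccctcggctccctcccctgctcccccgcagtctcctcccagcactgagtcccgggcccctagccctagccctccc
Col9a2, chr4:121039316-121039565, plus strand: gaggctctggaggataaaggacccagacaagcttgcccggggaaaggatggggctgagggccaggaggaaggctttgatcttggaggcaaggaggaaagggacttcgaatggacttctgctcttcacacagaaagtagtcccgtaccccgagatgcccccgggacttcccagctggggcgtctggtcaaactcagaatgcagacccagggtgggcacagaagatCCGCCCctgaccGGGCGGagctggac
The Col3a1 stretch holds 1 TATAAA and neither other motif, and the Col1a2 stretch 2 GGGCGG and 1 CCAAT. The Col9a2 stretch holds 2 GGGCGG on opposite strands. Col9a1, the type IX gene lowest in AROM in both layouts, has 2 starts and is not shown. Its first stretch holds none of these motifs and its second 1 CCAAT. Over 32851 promoters in the table, 12.4% hold TATAAA, 33.8% CCAAT and 32.7% GGGCGG on either strand in their 250 bases; over the 33 promoters of the matched collagens the counts were 5, 11 and 19. Matches are descriptions of letters, not of binding. Col4a1 and Col4a2, which make the commonest type IV trimer, are transcribed in opposite directions on chromosome 8 from RefSeq starts 21 bases apart. Their full promoter entries, which are longer than the 250 bases used above, share 78 bases. Col4a5 and Col4a6 are also transcribed in opposite directions, on chromosome X, with 1343 bases between their starts. Both distances were taken without regard to which start lies first.

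Levels of the collagens ranged from Col3a1 at up to 478 FPKM to Col10a1 at 0.00652 FPKM in paired-end WT. To be tested, a gene had to reach 1 FPKM in 2 or more of a layout's 4 columns. This minimum was met by 26 collagens in the single-end and 24 in the paired-end columns, and 24 met it in both. Among the paired-end columns, WT was the lowest for 14 of the 24 collagens (16.9% of all genes tested were lowest there) and AROM for 8 (47.1%). BRCA was the highest of these columns for 15 (41.7%). Among the single-end columns, WT was the lowest for 6 of 26 (20.4%), AROM for 7 (27%), CERM for 12 (23.6%), and BRCA was the highest for 12 (38%). The members that passed in both layouts were 6 of 10 fibrillar, 4 of 5 basement membrane and 14 of 22 other collagens. Col6a5 and Col28a1 passed in single-end columns alone. The 11 that passed in neither were Col2a1, Col4a4, Col6a4, Col8a2, Col10a1, Col11a1, Col11a2, Col19a1, Col22a1, Col24a1 and Col25a1.

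**Figure D1:**
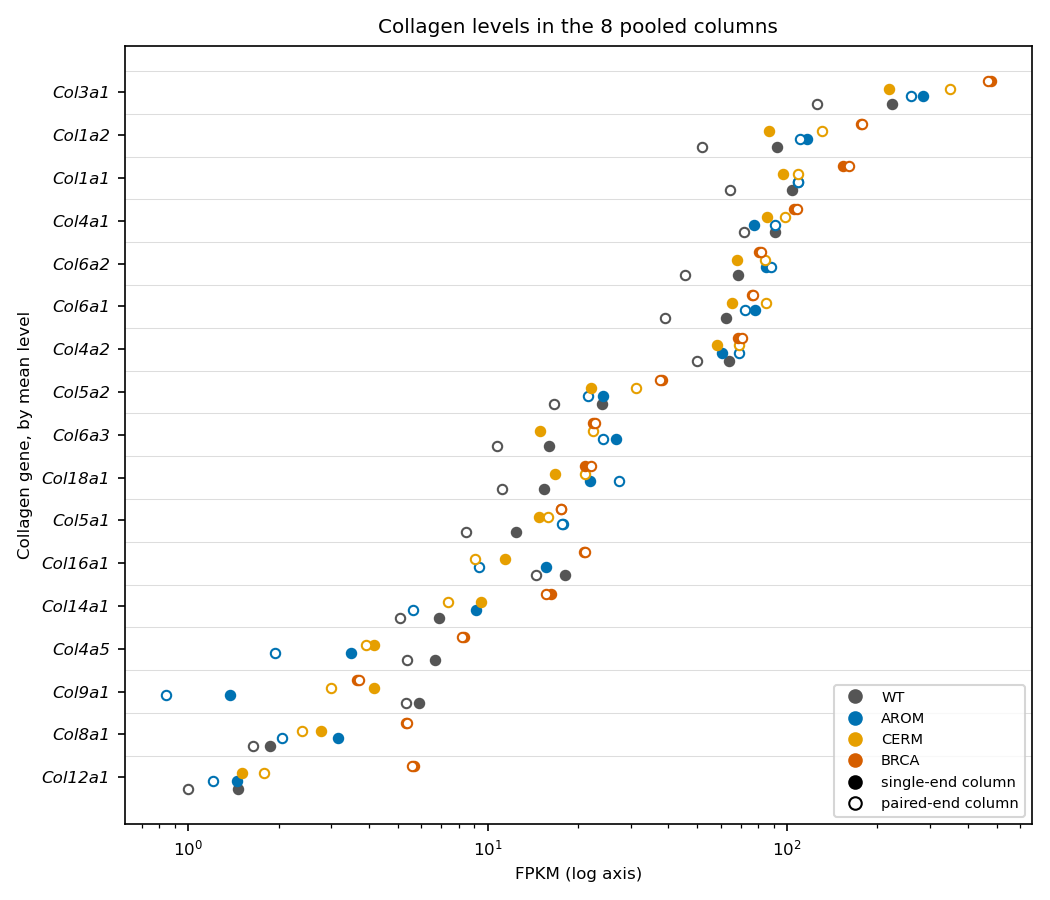
FPKM (log axis) of the 17 collagens with a mean of at least 10 FPKM or 2-fold apart in both layouts; filled points are single-end and open points paired-end pooled columns, coloured by genotype. The single-end and paired-end BRCA points nearly coincide in every row, and the paired-end WT point is the lowest of its row for 14 of the 17 genes, all but Col4a5, Col9a1 and Col16a1.

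Fibrillar collagens were the most abundant class, and their summed FPKM was highest in the BRCA columns, though not every chain was. Col3a1, the type III chain of pliable stromal fibrils, read 224, 285, 219 and 478 FPKM in the single-end WT, AROM, CERM and BRCA columns, and 125, 259, 351 and 469 FPKM in the paired-end ones. The BRCA columns were the highest in both layouts. Col1a2, the second chain of type I collagen, read 92.6, 116, 86.9 and 177 FPKM in the single-end WT, AROM, CERM and BRCA columns, and 52.1, 110, 130 and 178 FPKM in the paired-end ones. Col1a1, the major type I chain, read 104, 109, 97.0 and 154 FPKM in the single-end WT, AROM, CERM and BRCA columns, and 64.6, 109, 109 and 160 FPKM in the paired-end ones. For both type I chains BRCA was the highest column in each layout, and the other 3 genotypes lay close together in the single-end columns but not in the paired-end ones, where WT was the lowest.

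Type V collagen joins type I fibrils and limits their width. Col5a2 read 24.0, 24.2, 22.1 and 38.1 FPKM in the single-end WT, AROM, CERM and BRCA columns, and 16.7, 21.6, 31.2 and 37.6 FPKM in the paired-end ones. Col5a1 read 12.4, 17.9, 14.8 and 17.6 FPKM in the single-end WT, AROM, CERM and BRCA columns, and 8.45, 17.6, 15.9 and 17.6 FPKM in the paired-end ones. Col5a2, like type I, was highest in BRCA, while Col5a1 was as high in AROM as in BRCA. Col27a1, a fibrillar chain best known from cartilage, stayed between 1.02 and 2.05 FPKM in all 8 columns. AROM was its highest column in both layouts. Col5a3, a type V chain left out because a pair of loci shares it, did not follow type I. In the single-end WT, AROM, CERM and BRCA columns, the first locus read 11.7, 14.0, 12.8 and 8.45 FPKM. The second read 12.9, 16.5, 9.30 and 3.26 FPKM there. In the paired-end ones, they read 10.4, 21.5, 13.4 and 9.65 FPKM, and 0.331, 0.406, 0.262 and 0.0790 FPKM. Both loci were lowest in BRCA in each layout.

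The threshold for a difference was 2-fold, a log2 ratio of FPKM + 1 of 1 or more in size. For BRCA against WT, 4 of 26 collagens were 2-fold higher in the single-end columns, where 2.97% of all 11715 genes passing the minimum were, and 8 of 24 in the paired-end columns, where 4.36% of 11535 genes were. None was 2-fold lower (background 1.94% and 1.29%). In both layouts, 4 of 24 were higher (background 2.38%; 1.03% lower): Col3a1, Col8a1, Col12a1 and Col14a1. Further members past 2-fold in the paired-end columns alone were Col1a1, Col1a2, Col5a2 and Col6a3, with Col5a1 just under the threshold at a log2 ratio of 0.98. Median-ratio scaling put Col6a3 at 0.90, below 2-fold. Among the fibrillar chains, the log2 ratio of Col3a1 was 1.09 (single-end) and 1.90 (paired-end), that of Col1a2 0.93 and 1.75, and that of Col1a1 0.56 and 1.30. The median over the 6 fibrillar chains tested was 0.60 and 1.21, against 0.04 and 0.10 over all genes tested.

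Of the 4 collagens past 2-fold in both layouts between BRCA and WT, 3 were not fibrillar. Col12a1, a chain that decorates type I fibrils under load, read 1.46, 1.45, 1.51 and 5.65 FPKM in the single-end WT, AROM, CERM and BRCA columns, and 0.9999, 1.21, 1.79 and 5.60 FPKM in the paired-end ones. Col14a1, a related fibril-surface chain, read 6.86, 9.13, 9.498 and 16.3 FPKM in the single-end WT, AROM, CERM and BRCA columns, and 5.09, 5.61, 7.37 and 15.6 FPKM in the paired-end ones. Col8a1, a short-chain network collagen of vessels and remodelling tissue, read 1.88, 3.17, 2.78 and 5.34 FPKM in the single-end WT, AROM, CERM and BRCA columns, and 1.65, 2.06, 2.39 and 5.38 FPKM in the paired-end ones. In these 3 genes both BRCA columns lay above all 6 columns of the other genotypes. As FPKM ratios, BRCA was 3.87 and 5.60 times WT for Col12a1, 2.37 and 3.07 times for Col14a1, and 2.84 and 3.26 times for Col8a1 (single-end and paired-end).

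Some collagens under the minimum were also highest in BRCA, and others were not. Col11a1, a fibrillar chain that nucleates fibrils, was at 1.65 and 1.62 FPKM in BRCA (single-end and paired-end) and between 0.295 and 0.520 FPKM in the other 6 columns. Col25a1, a transmembrane collagen, was at 0.536 and 0.522 FPKM in BRCA and at most 0.183 elsewhere. Col10a1, the chain of hypertrophic cartilage, was at 0.311 and 0.279 FPKM in BRCA and at most 0.0834 elsewhere. Col2a1, Col6a4 and Col8a2 were also highest in BRCA in both layouts. Col4a4 was instead lowest in BRCA in both layouts, at 0.179 and 0.172 FPKM. Col11a2, a fibrillar chain, was lowest in paired-end BRCA, at 0.187 FPKM. Neither it nor Col19a1, Col22a1 or Col24a1 was highest in BRCA in either layout. None of these genes entered the counts, and with depth unknown the precision of such low values cannot be given.

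Comparisons without the WT columns gave the same side for part of these genes. For BRCA against CERM, 3 of 26 collagens were 2-fold higher in the single-end columns (Col1a2, Col3a1 and Col12a1; background 2.37%) and 2 of 24 in the paired-end columns (Col12a1 and Col16a1; background 2.3%). Median-ratio scaling put single-end Col1a2 at a log2 ratio of 0.95, below 2-fold. Only Col12a1 passed in both (1 of 24; background 1.3%), at 3.74 and 3.13 times CERM by FPKM. None was 2-fold lower (background 2.79% and 2.12%; 0.982% in both layouts). For BRCA against AROM, 2 of 26 were higher in the single-end columns (Col4a5 and Col12a1; background 4.68%) and 8 of 24 in the paired-end columns (Col4a5, Col4a6, Col8a1, Col9a1, Col9a3, Col12a1, Col14a1 and Col16a1; background 9.97%). Both of the first, Col4a5 and Col12a1, passed in the paired-end columns too (2 of 24; background 4.15%), and none was 2-fold lower (background 3.13% and 4.5%; 1.45% in both layouts). The paired-end count carries a shift of all genes: their median log2 ratio was 0.21 for BRCA against AROM, and median-ratio scaling and quantile normalization each gave a count of 5, with Col8a1 and Col16a1 below 2-fold under both. All genes were likewise shifted by 0.18 for CERM against AROM in the paired-end columns. Col3a1 was 2.19 and 1.34 times CERM and 1.68 and 1.81 times AROM by FPKM, so its distance from either was smaller than from WT in the paired-end columns.

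**Figure D2:**
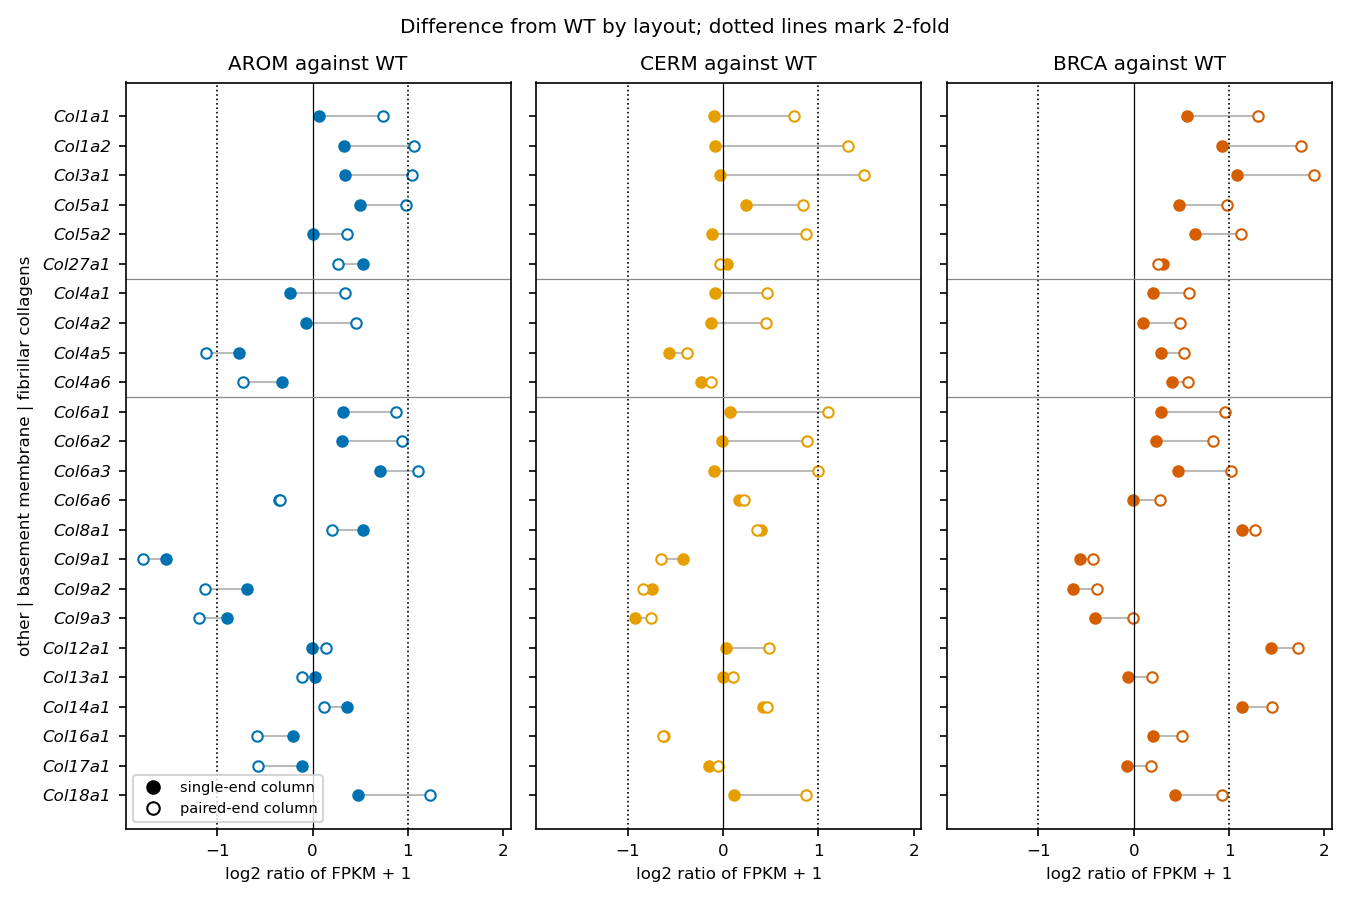
Log2 ratio of FPKM + 1 against WT for the 24 collagens tested in both layouts, by class from top to bottom (fibrillar, basement membrane, other); filled points are single-end, open points paired-end, and dotted lines mark 2-fold. In BRCA Col3a1, Col8a1, Col12a1 and Col14a1 pass the right line with both points, in AROM Col9a1 passes the left line with both, and in CERM no gene does so.

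In AROM against WT, Col9a1 was the collagen called in both layouts, and it was lower. In the single-end columns 1 of 26 was 2-fold lower (background 1.7%) and none higher (background 2.39%); in the paired-end columns 4 of 24 were lower (background 2.83%) and 4 higher (background 2.04%). The lower genes were Col9a1 in both layouts (1 of 24; background 1.34%) and Col9a2, Col9a3 and Col4a5 in the paired-end columns. The higher ones, in the paired-end columns alone, were Col1a2, Col3a1, Col6a3 and Col18a1, so none was higher in both layouts (background 0.377%). Median-ratio scaling turned the paired-end split into 7 higher and 4 lower, and quantile normalization into 2 higher and 1 lower, with Col1a2 at a log2 ratio of 0.81, Col3a1 at 0.66 and Col4a5 at -0.93.

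Type IX collagen is a fibril-associated trimer of the Col9a1, Col9a2 and Col9a3 chains, best known from cartilage and the eye. Col9a1 read 5.90, 1.38, 4.15 and 3.66 FPKM in the single-end WT, AROM, CERM and BRCA columns, and 5.31, 0.840, 3.004 and 3.70 FPKM in the paired-end ones. Col9a2 read 12.6, 7.47, 7.12 and 7.78 FPKM in the single-end WT, AROM, CERM and BRCA columns, and 10.4, 4.24, 5.37 and 7.77 FPKM in the paired-end ones. Col9a3 read 8.89, 4.29, 4.21 and 6.45 FPKM in the single-end WT, AROM, CERM and BRCA columns, and 6.33, 2.22, 3.33 and 6.27 FPKM in the paired-end ones. All 3 chains were highest in WT in both layouts. AROM was the lowest column for Col9a1 in both layouts and for Col9a2 and Col9a3 in the paired-end columns. In the single-end columns CERM was marginally lower than AROM for Col9a2 and Col9a3. Of all genes tested, 27% were lowest in AROM in the single-end and 47.1% in the paired-end columns. Markers of cartilage were not all at one level. Acan, the main cartilage proteoglycan, was at most 0.0245 FPKM, Matn1 at most 0.0164 FPKM, and Col2a1, the cartilage fibril chain, at most 0.111 FPKM. Lect1, the chondromodulin gene, was above these, at 6.38 and 5.84 FPKM in WT (single-end and paired-end), 10.1 and 8.99 FPKM in BRCA, 3.37 and 2.62 FPKM in AROM and 1.98 and 1.33 FPKM in CERM. Sox9, a transcription factor of chondrocytes and of mammary epithelium, was at 15.7 FPKM in WT and 7.36 in AROM (single-end) and at 15.2 and 4.55 FPKM (paired-end).

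CERM against AROM set the same gene apart. Col9a1 was 3.01 and 3.57 times AROM in CERM by FPKM (single-end and paired-end) and the only collagen 2-fold higher in both layouts (1 of 24; background 0.991%). Col6a5 was the other one called in the single-end columns (2 of 26; background 1.46%), at 1.72 FPKM in CERM and 0.128 in AROM; it missed the minimum in the paired-end columns, where it was at 1.19 and 0.0775 FPKM. In the paired-end columns 1 of 24 was called (background 3.83%), and no collagen was 2-fold lower in CERM in either layout (background 0.819% and 2.29%; 0.202% in both layouts). Quantile normalization ended the paired-end call of Col9a1, with a log2 ratio of 0.87 against 1.12.

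In CERM against WT no collagen was 2-fold apart in the single-end columns (background 3.34% higher and 0.999% lower). In the paired-end columns 3 of 24 were higher (Col1a2, Col3a1 and Col6a1; background 3.51%) and none lower (background 0.824%), and none was called in both layouts (background 0.771% higher and 0.368% lower). Quantile normalization put Col6a1 at a log2 ratio of 0.98, below 2-fold. Col3a1 was 0.974 times WT by FPKM in the single-end columns and 2.80 times in the paired-end ones. The fibrillar median was -0.06 and 0.85, against -0.05 and 0.04 over all genes tested, so the 2 layouts of the columns labelled CERM gave different pictures of the fibrillar collagens.

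Type IV collagens of the common network varied least. Col4a1 read 91.4, 77.4, 85.8 and 105 FPKM in the single-end WT, AROM, CERM and BRCA columns, and 71.6, 91.3, 98.6 and 108 FPKM in the paired-end ones. Col4a2 read 63.7, 60.7, 58.4 and 68.4 FPKM in the single-end WT, AROM, CERM and BRCA columns, and 50.0, 68.9, 68.9 and 70.4 FPKM in the paired-end ones. The highest column was 1.501 times the lowest for Col4a1 and 1.41 times for Col4a2, against 3.82 times for Col3a1, and neither gene was 2-fold apart in any comparison. The median over the 4 tested type IV chains for BRCA against WT was 0.25 (single-end) and 0.55 (paired-end).

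The minor type IV chains Col4a5 and Col4a6, which form a second network beneath epithelium and smooth muscle, behaved otherwise. Col4a5 read 6.66, 3.49, 4.15 and 8.35 FPKM in the single-end WT, AROM, CERM and BRCA columns, and 5.37, 1.94, 3.91 and 8.21 FPKM in the paired-end ones. Col4a6 read 3.11, 2.28, 2.50 and 4.43 FPKM in the single-end WT, AROM, CERM and BRCA columns, and 2.68, 1.21, 2.38 and 4.47 FPKM in the paired-end ones. Both genes ran in the order BRCA, WT, CERM, AROM in each layout. Col4a5 in BRCA was 2.39 and 4.23 times AROM, and quantile normalization brought its single-end log2 ratio from 1.06 to 0.93. Col4a4, a chain best known from kidney, was at most 0.348 FPKM.

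Type VI collagen forms beaded filaments around cells and is abundant in fat and muscle stroma. Col6a1 read 62.3, 78.0, 65.4 and 76.2 FPKM in the single-end WT, AROM, CERM and BRCA columns, and 39.1, 72.4, 85.0 and 76.9 FPKM in the paired-end ones. Col6a2 read 68.6, 85.0, 68.2 and 80.8 FPKM in the single-end WT, AROM, CERM and BRCA columns, and 45.4, 87.9, 84.1 and 81.7 FPKM in the paired-end ones. Col6a3, the longest chain, read 16.0, 26.7, 14.9 and 22.5 FPKM in the single-end WT, AROM, CERM and BRCA columns, and 10.7, 24.2, 22.4 and 22.9 FPKM in the paired-end ones. In the paired-end columns the 3 genotypes other than WT were close together and all above WT, and in the single-end columns AROM was the highest for all 3 genes. Col6a6 lay between 0.529 and 1.60 FPKM and was lowest in AROM in both layouts, as was Col6a5.

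Among the remaining collagens, Col18a1, whose product carries the endostatin fragment in vascular and epithelial basement membranes, read 15.4, 21.9, 16.7 and 21.1 FPKM in the single-end WT, AROM, CERM and BRCA columns, and 11.1, 27.5, 21.2 and 22.0 FPKM in the paired-end ones. AROM was its highest column in both layouts. Col16a1, a fibril-associated chain, read 18.1, 15.6, 11.4 and 21.0 FPKM in the single-end WT, AROM, CERM and BRCA columns, and 14.5, 9.34, 9.03 and 21.1 FPKM in the paired-end ones, so CERM was lowest and BRCA highest in both. Col17a1, the hemidesmosome collagen of basal epithelial cells, ranged from 2.66 to 5.53 FPKM, and Col13a1, a transmembrane collagen, from 0.899 to 1.43 FPKM. Col28a1, a collagen known from peripheral nerve, was at 1.42 and 1.60 FPKM in WT (single-end and paired-end), 1.04 and 0.967 in BRCA, 0.447 and 0.272 in AROM, and 0.278 and 0.514 in CERM.

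Ratios between chains within a column do not depend on the scaling between columns. The ratio of Col4a1 to Col4a2 by FPKM stayed between 1.28 and 1.54 over the 8 columns and that of Col6a1 to Col6a2 between 0.824 and 1.01. Col1a1 to Col1a2 ran from 0.836 in paired-end CERM to 1.24 in paired-end WT, and was above 1 in both WT columns and below 1 in both BRCA and both AROM columns. Col5a1 to Col5a2 was higher in AROM (0.739 single-end and 0.815 paired-end) than in any other column, and lowest in BRCA (0.463 and 0.469). Col3a1 to Col1a1 was 2.16 and 1.94 for WT and 3.12 and 2.92 for BRCA (single-end and paired-end), with AROM at 2.62 and 2.38 and CERM at 2.25 and 3.22; all 3 genotypes stood above WT in both layouts. Col6a3 to Col6a1 was 0.343 and 0.335 in AROM, the highest pair of values, and 0.228 to 0.297 elsewhere.

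Summed FPKM over the 37 collagens came to 854, 962, 810 and 1333 in the single-end WT, AROM, CERM and BRCA columns, and to 559, 925, 1068 and 1338 in the paired-end ones. The left-out loci are not in these sums. Of the 2 Col15a1 loci, the more abundant read 45.7, 44.8, 42.0 and 40.4 FPKM in the single-end WT, AROM, CERM and BRCA columns. It read 32.9, 52.9, 57.3 and 40.9 FPKM in the paired-end ones. The other Col15a1 locus was at most 2.15 FPKM. Fibrillar chains held 53.8% of the sum in WT and 65.1% in BRCA (single-end), and 48.1% and 64.8% (paired-end). The basement membrane share was 19.3% in WT and 14.0% in BRCA (single-end), and 23.2% and 14.3% (paired-end). Col3a1 alone held 26.3% and 22.4% in WT and 35.9% and 35.1% in BRCA. The fibril-associated share was highest in WT in both layouts, at 6.32% and 7.66%, and lowest in AROM, at 4.12% and 2.55%.

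**Figure D3:**
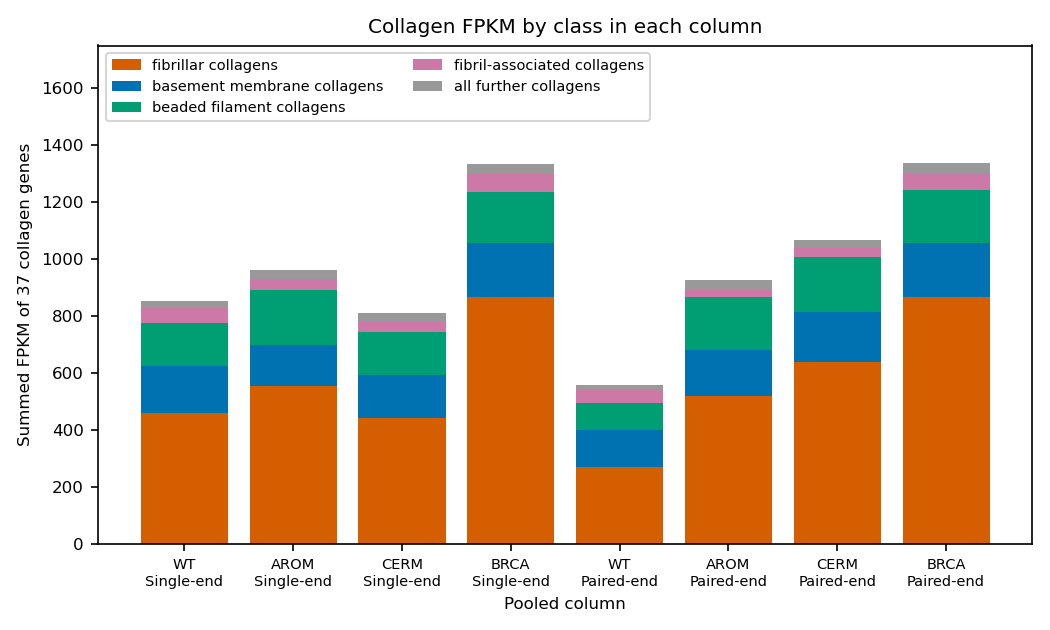
Summed FPKM of the 37 collagens in each pooled column, stacked by class. The BRCA bars stand at 1333 and 1338 FPKM in the 2 layouts, the paired-end WT bar is the lowest at 559 FPKM, and the fibrillar segment is the tallest of every bar.

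The layouts themselves differed by genotype. Over the 24 collagens tested in both, paired-end minus single-end log2 values had medians of -0.34, -0.20, 0.02 and 0.01 for WT, AROM, CERM and BRCA, against -0.13, -0.24, -0.07 and -0.04 over all genes. In BRCA the shifts of all 24 lay between -0.08 and 0.06. In WT the 6 fibrillar chains had a median of -0.59, with the fibroblast markers at -0.41 and the skeletal muscle markers at 0.75. In CERM the fibrillar median was 0.32 with the muscle markers at -0.41. The paired-end WT column enters each paired-end comparison with WT, and its part in them was not tested.

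Genes that make and handle collagen were followed in lists, whose counts stand against the shares of all genes 2-fold higher than WT: 2.97% (single-end) and 4.36% (paired-end) in BRCA, with 2.38% in both layouts, 3.34% and 3.51% in CERM, and 2.39% and 2.04% in AROM. Of 18 enzymes and chaperones of collagen folding, none was 2-fold apart from WT in AROM or CERM in either layout, and in BRCA 1 was, Plod2, a lysyl hydroxylase gene, in the paired-end columns (6.21 FPKM against 2.59; 6.27 against 3.40 single-end). Their median for BRCA against WT was 0.06 and 0.20. Serpinh1, the collagen chaperone, read 208 FPKM for WT and 173 for BRCA (single-end), and 167 and 178 FPKM (paired-end), with no gap like that of Col3a1. Of 8 processing and cross-linking genes, none was 2-fold apart in the single-end columns of any genotype against WT. In the paired-end columns Lox and Loxl2, lysyl oxidase genes that cross-link fibrils, were higher in BRCA (14.3 FPKM against 6.45, and 11.2 against 4.72). Their single-end values were 15.1 against 8.51 and 11.7 against 5.78 FPKM. Lox, Sparc and Pcolce2 were higher in paired-end CERM (22.0 against 6.45, 1240 against 490.04, and 38.1 against 10.1 FPKM). In single-end CERM Lox was near WT (9.44 against 8.51 FPKM), Sparc below it (569 against 613) and Pcolce2 above it (20.8 against 11.2).

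Of 17 fibril-binding partners, 3 were 2-fold higher in BRCA than in WT in both layouts: Fn1, fibronectin (66.9 FPKM against 29.4 single-end, 67.4 against 22.6 paired-end), Thbs2, thrombospondin 2 (17.8 against 8.07, and 17.05 against 6.02 FPKM), and Tnc, tenascin C (15.0 against 6.84, and 14.4 against 5.81 FPKM). Their count by layout was 3 and 8 higher, with medians of 0.45 and 0.93. In AROM 2 of 17 were 2-fold higher than WT and 1 lower in each layout (1.7% and 2.83% of all genes were lower). The medians were 0.52 and 0.31, with 13 of 17 above WT in each layout. Thbs2 was higher in both layouts (19.2 and 16.1 FPKM). Tnxb (log2 ratios 1.10 and 0.99) passed in the single-end columns alone, and Dpt (0.87 and 1.12) in the paired-end ones alone. Fmod, the fibril-binding proteoglycan fibromodulin, was lower in both (3.36 against 9.16, and 2.03 against 6.99 FPKM). In CERM 6 of 17 were 2-fold higher than WT in the paired-end columns and none in the single-end ones. Among them, Postn (171 FPKM against 54.5 paired-end, but 93.7 against 107 single-end) changed side between layouts. So did Lum (138 against 48.7 paired-end, but 75.2 against 85.8 single-end). Thbs2 and Dpt were above WT in both layouts, with log2 ratios of 0.84 and 0.62 (single-end) and 1.43 and 1.59 (paired-end). The list medians for CERM were 0.23 and 0.71, with 12 of 17 above WT in the single-end columns and 16 in the paired-end ones.

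Of 16 laminin, nidogen and related genes none was 2-fold apart from WT in both layouts in any genotype. Lamb3, an epithelial laminin chain, was lower in AROM in the paired-end columns (5.26 FPKM against 11.9; 8.48 against 14.7 single-end), and Lama2 was higher in CERM there (8.32 against 3.63; 6.60 against 5.32 single-end). Among 6 collagen receptor genes, Ddr2, a fibrillar collagen receptor kinase, was higher in BRCA in the single-end columns (11.8 FPKM against 4.44) and under 2-fold in the paired-end ones (12.4 against 7.04), and Lair1, a leukocyte collagen receptor, was higher in paired-end CERM (3.55 against 1.18).

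Of 9 genes of collagen breakdown, 2 were 2-fold higher in BRCA in the single-end and 5 in the paired-end columns (2.97% and 4.36% of all genes), with medians of 0.53 and 1.00. Ctsk, the collagen-cutting cathepsin K, was at 47.6 FPKM against 20.8 in WT (single-end) and 44.2 against 13.8 (paired-end), and Timp1, an inhibitor of metalloproteinases, at 17.4 against 8.11 and 17.3 against 5.20 FPKM. Mmp3, stromelysin, was at 67.7 against 35.0 FPKM (single-end) and 65.8 against 30.0 (paired-end). In CERM 1 of the 9 was 2-fold lower than WT in the single-end columns (0.999% of all genes) and 2 were higher in the paired-end ones (3.51%). The lower one was Mmp3, at 15.9 FPKM against 35.0, but at 34.2 against 30.0 paired-end. The higher ones were Ctsk and Mmp2. Ctsk was at 16.6 FPKM in the single-end and 89.5 in the paired-end CERM column. Mmp2 was at 70.4 FPKM against 32.9 paired-end, but at 42.6 against 44.7 single-end. In AROM none of the 9 was 2-fold apart from WT. TGF-beta signalling is a main inducer of fibrillar collagen. Of 12 of its genes, 2 were 2-fold higher than WT in single-end BRCA and 4 in paired-end BRCA. In CERM 2 were higher in each layout (3.34% and 3.51% of all genes). Ctgf, a matrix-associated growth factor gene, was higher in both layouts in BRCA (34.1 FPKM against 12.4 single-end, 34.7 against 12.5 paired-end). It was also higher in both in CERM (34.7 FPKM single-end, 43.7 paired-end). The single-end fibrillar medians were 0.60 in BRCA and -0.06 in CERM, and any link to Ctgf was not tested. In AROM 2 of the 12 were lower in the paired-end columns (2.83% of all genes), the ligand genes Tgfb2 and Tgfb3 (2.67 against 8.21, and 19.6 against 41.7 FPKM).

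**Figure D4:**
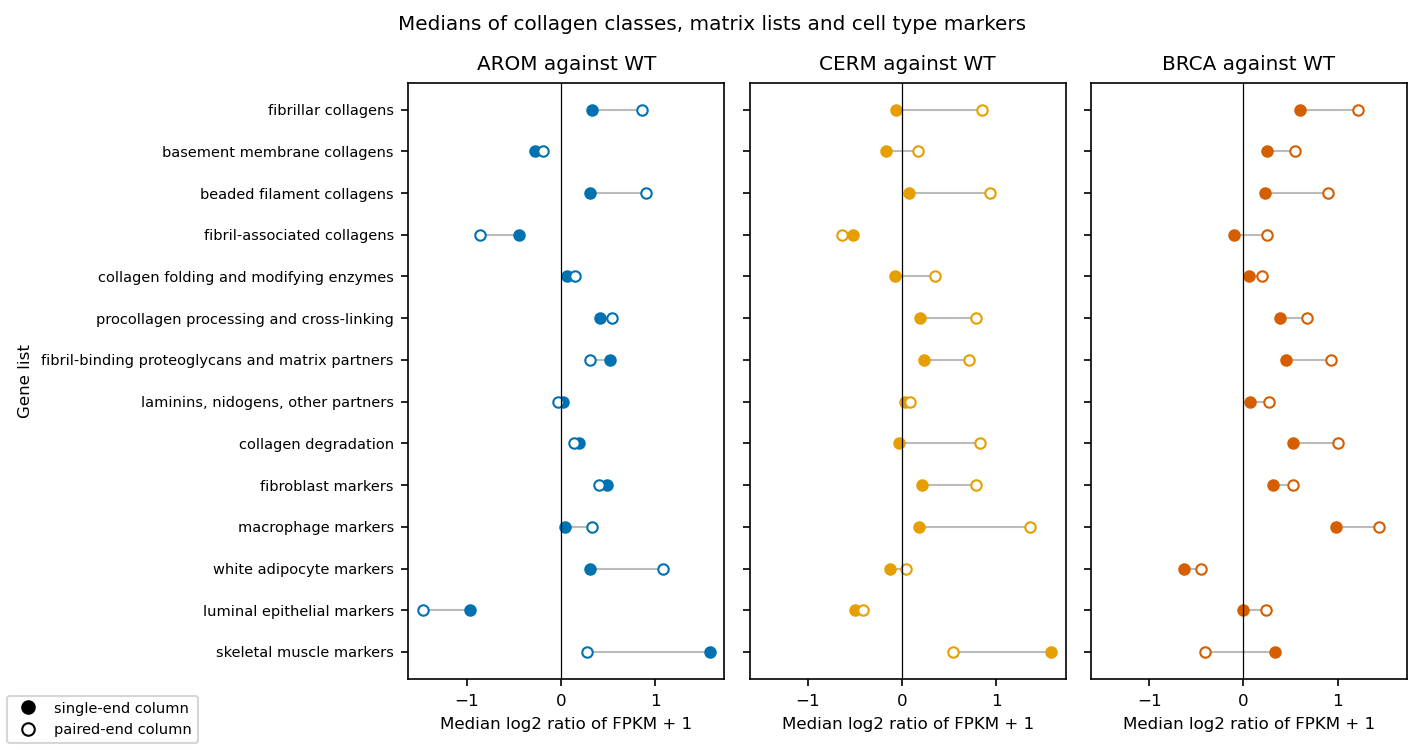
Median log2 ratio of FPKM + 1 against WT for collagen classes, matrix lists and cell type markers; filled points are single-end and open points paired-end. In BRCA the fibrillar medians (0.60 and 1.21) stand beside macrophage medians of 0.98 and 1.43, and in AROM the fibril-associated medians (-0.44 and -0.86) beside luminal epithelial medians of -0.96 and -1.47.

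Cell type markers moved beside the collagens, and their part in the collagen differences was not tested. Shares of all genes 2-fold lower than WT, for the counts below, were 1.7% and 2.83% in AROM, 0.999% and 0.824% in CERM and 1.94% and 1.29% in BRCA (single-end and paired-end). All 12 fibroblast markers were present in every column, and none was at 0. For BRCA against WT none of the 12 was 2-fold higher in the single-end columns and 2 were in the paired-end ones, Thy1 and Lum, with medians of 0.31 and 0.53, below the fibrillar medians of 0.60 and 1.21. Their summed FPKM was 717 in WT and 855 in BRCA (single-end), and 532 and 809 (paired-end). For CERM against WT the fibroblast medians were 0.21 and 0.79, with 0 and 4 of 12 higher, and for AROM 0.49 and 0.41, with 1 and 2 higher. Macrophage markers were 2-fold higher in BRCA in 4 of 9 (single-end) and 6 of 8 (paired-end), where 2.97% and 4.36% of all genes were, and in CERM in none of 9 and 5 of 8, where 3.34% and 3.51% were.

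Of 11 white adipocyte markers, 1 was 2-fold higher in AROM in the single-end and 8 in the paired-end columns (2.39% and 2.04% of all genes), with summed FPKM of 24794 against 16381 in WT and 30635 against 12648. In BRCA 2 of 11, Retn and Adrb3, were lower in both layouts, with medians of -0.63 and -0.45. Luminal epithelial markers were 2-fold lower in AROM in 5 of 12 and 8 of 12, the direction of the type IX chains and Col4a5. Their summed FPKM was 480.3 against 965 in WT (single-end) and 285 against 778 (paired-end). In CERM the luminal medians against WT were -0.50 and -0.42, with the type IX chains and Col4a5 below WT. In BRCA they were -0.01 and 0.24, with the type IX chains below WT and Col4a5 above it. Skeletal muscle markers were higher in single-end AROM and CERM, 11 of 11 each, and by 0 and 1 of 11 in the paired-end columns; their sum in WT was 14510 (single-end) and 23672 FPKM (paired-end). Endothelial markers had summed values between 163 and 237 FPKM and medians of -0.40 and -0.30 for BRCA against WT, with 1 of 8, Cldn5, lower in both layouts (14.8 FPKM against 46.0, and 15.4 against 39.3).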

How the data were processed

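TruSeq libraries of polyadenylated RNA were run on an Illumina HiSeq instrument, per the labels' protocols. The submitters' processing notes name mm9 and the tools TopHat, Cufflinks, FastQC and Trim Galore, with no versions. The authors deposited FPKM values in 8 pooled columns, and the way the 17 libraries were pooled is unknown from the sources used here. FPKM scales fragments by transcript length and mapped total, so it carries no counts and a column's level depends on its other genes.

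Loci with 1 symbol of their own (20420 of 30843) were kept, and each layout was analysed alone with a minimum of 1 FPKM in 2 of 4 columns. Log2 ratios used a pseudocount of 1 FPKM, which understates the ratio of low genes, and 2-fold was the call. Planned tests need replicates and none was run. Named genes were collagens with a mean of at least 10 FPKM or called in both layouts, and up to 4 genes per further list. Others were added after their values were seen: the remaining collagens, the left-out Col5a3 and Col15a1 loci, Acan, Matn1 and Sox9. The members and lists were chosen with earlier results of these data known. Whether counting used strand is unknown here. The calling rule was tested on simulated data. Python 3.11.15, pandas 2.3.3 and numpy 2.4.6 were used. A gene of a further list is not reported here.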

Additional observations from a re-analysis of the deposited data

How the results depend on the processing

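Pseudocount 0.1, no minimum, a minimum of 5 FPKM, median-ratio scaling and quantile normalization were tried for the counts of collagens past 2-fold. Of 60 such counts 42 stayed within 1.5 times the reported one. With a pseudocount of 0.1, the single-end counts became 4 for AROM against WT (from 1), 2 for CERM against WT (from 0), 5 for BRCA against AROM (from 2) and 5 for BRCA against CERM (from 3), and the paired-end counts 2 for CERM against AROM (from 1) and 5 for BRCA against CERM (from 2). With a minimum of 5 FPKM, which tests 17 and 16 collagens, the single-end counts became 0 for AROM against WT, 2 for BRCA against WT (from 4), 0 for CERM against AROM (from 2) and 1 for BRCA against AROM, and the paired-end counts 0 for CERM against AROM, 4 for BRCA against AROM (from 8) and 1 for BRCA against CERM. Without a minimum the paired-end count was 2 for CERM against AROM. Median-ratio scaling gave 5 for BRCA against AROM (paired-end). Quantile normalization gave 3 for AROM against WT, 0 for CERM against AROM and 5 for BRCA against AROM (paired-end). Of 984 log2 ratios of named collagens 14 passed 2-fold newly, 14 lost it and none past 2-fold changed sign; the cause was not tested. No paired analysis was possible because the columns are pooled and carry no replicate numbers, and for the same reason no library could be left out. Depth is unknown, so low values have no error.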
